A study of Homo sapiens with 12 samples.

Results

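Aldehyde dehydrogenases are a family of enzymes that oxidise aldehydes, whose activity is used to pick out stem-like cells, and 10 of their genes were followed here: ALDH1A1, ALDH1A2, ALDH1A3, ALDH1B1, ALDH2, ALDH3A1, ALDH3A2, ALDH3B1, ALDH7A1 and ALDH18A1. They were chosen by name, and each had a row of its own among the 34595 genes with a value in the table. Expression was measured on Illumina HT-12 v3 BeadChip arrays in KATO-III, SNU-216 and SNU-601, established gastric cancer cell lines grown in the same medium, with no treatment named other than sorting. Each line was sorted by flow cytometry, with an antibody to the AC133 epitope of CD133, into CD133+ cells from the brightest and CD133- cells from the dimmest end of the staining, and each of the 6 populations was hybridised on 2 arrays, 12 in all. The array labels name SNU-216 where the deposited description of the experiment has SNU201, and the labels were followed. Nothing states whether the 2 arrays of a population came from separate sorts, so the p-values below measure only the spread between these arrays, which may be technical. In sorted populations measured in bulk, fewer cells that express a gene and less RNA per cell cannot be told apart.

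The enzymes of this family turn reactive aldehydes into carboxylic acids, mostly with NAD+ as cofactor. The ALDH1A enzymes make retinoic acid from retinal, ALDH2 and ALDH1B1 are mitochondrial enzymes that clear acetaldehyde after alcohol, the ALDH3 enzymes act on fatty and aromatic aldehydes, and ALDH7A1 and ALDH18A1 work in lysine and proline metabolism. High aldehyde dehydrogenase activity, often put down to ALDH1A1 or ALDH1A3, is a widely used marker of stem-like cells in epithelial tumours.

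The values are intensities on a linear scale after background subtraction, and an intensity under 32.7 was treated as not above the floor, a limit set by how far the lowest values scatter under 0. Of the 10 genes, 9 lay above the floor on all 4 arrays of KATO-III, 8 on all 4 arrays of SNU-601 and 6 on all 4 arrays of SNU-216. The 5 genes above it on all 12 arrays were ALDH1B1, ALDH3A2, ALDH3B1, ALDH7A1 and ALDH18A1. ALDH1A2 lay under it on every array, between -8.35 and 14.7, and was not tested. The other 9 passed the filter, which asked for at least 2 arrays above the floor and kept 20147 genes. Levels of different genes come from different probes and were not set against each other.

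**Figure D1:**
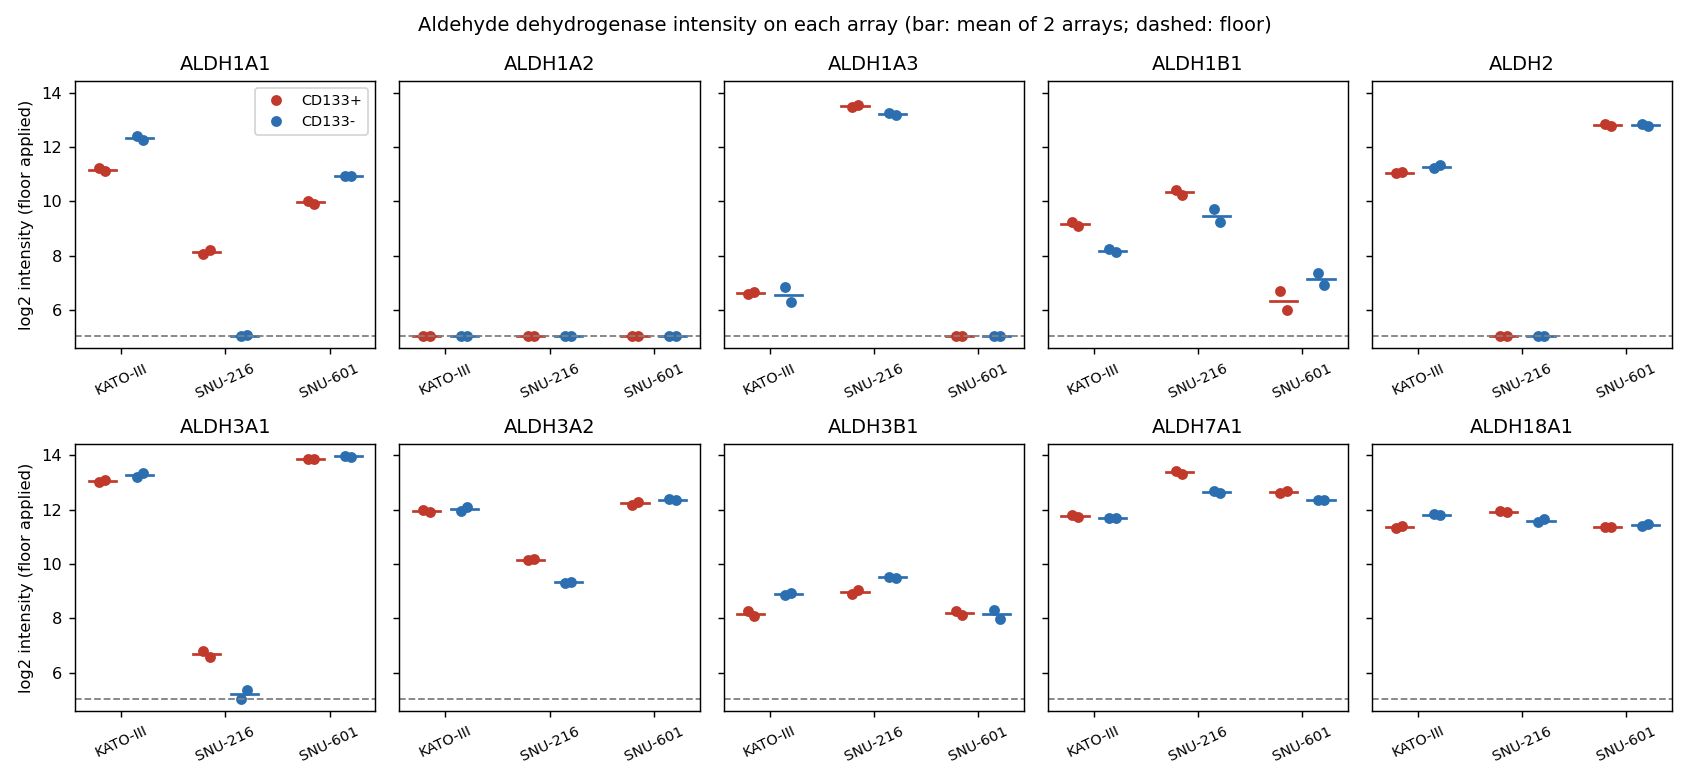
Intensity of each of the 10 genes on each of the 12 arrays, as log2 of the intensity with the floor applied (vertical axis), for the CD133+ and CD133- arrays of each cell line (horizontal axis); short bars are the means of 2 arrays and the dashed line is the floor. ALDH1A3 was high in SNU-216 alone, ALDH2 was under the floor there, and ALDH1A1 was lower in CD133+ cells of KATO-III and SNU-601 and higher in those of SNU-216.

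Promoter sequences are shown for 3 genes: ALDH1A1, for which the fractions moved in opposite directions in different lines, ALDH1A3, which was high in SNU-216 alone, and ALDH7A1, the gene called over all lines. Each is the stretch of 250 bases before the start of the gene, 5′ to 3′ along the gene's strand, from RefSeq on GRCh38.p14. Capitals mark matches on either strand to the 4 motifs searched, which were the TATA box (TATAAA), the CCAAT box (CCAAT), the GC box (GGGCGG) and the core of the antioxidant response element (TGACNNNGC), and the runs of GGGCGG in ALDH1A3 overlap in part.
ALDH1A1: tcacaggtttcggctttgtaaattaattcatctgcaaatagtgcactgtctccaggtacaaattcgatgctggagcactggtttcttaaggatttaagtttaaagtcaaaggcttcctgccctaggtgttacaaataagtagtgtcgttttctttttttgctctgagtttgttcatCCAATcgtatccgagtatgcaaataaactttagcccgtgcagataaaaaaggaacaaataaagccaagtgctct
ALDH1A3: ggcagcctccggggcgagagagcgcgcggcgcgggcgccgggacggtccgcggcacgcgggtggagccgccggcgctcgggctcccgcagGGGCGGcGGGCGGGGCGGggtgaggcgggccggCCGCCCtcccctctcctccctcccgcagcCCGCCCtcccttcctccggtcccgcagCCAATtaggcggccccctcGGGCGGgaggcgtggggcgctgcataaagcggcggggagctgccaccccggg
ALDH7A1: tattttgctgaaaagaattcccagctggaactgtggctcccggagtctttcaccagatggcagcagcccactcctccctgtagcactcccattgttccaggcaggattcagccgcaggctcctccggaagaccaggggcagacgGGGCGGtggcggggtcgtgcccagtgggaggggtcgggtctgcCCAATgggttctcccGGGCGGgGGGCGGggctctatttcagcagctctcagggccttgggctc
The ALDH1A1 stretch lies at chr9:72953054-72953303 on the minus strand, the ALDH1A3 stretch at chr15:100879581-100879830 on the plus strand, and the ALDH7A1 stretch at chr5:126595220-126595469 on the minus strand. All 3 hold a CCAAT that begins 74, 71 and 63 bases before the start of ALDH1A1, ALDH1A3 and ALDH7A1, and 32.0% of 34788 promoters of the same length hold this motif. They differ in base composition: the ALDH1A1 stretch has 6 CpG dinucleotides and a GC content of 38.4%, the ALDH1A3 stretch 38 and 82.4%, and the ALDH7A1 stretch 11 and 64%, against a median of 11 CpG over all promoters. GGGCGG matched 6 times in ALDH1A3, 3 times in ALDH7A1 and not in ALDH1A1, and 42.6% of all promoters hold it. The TATA box letters and those of the antioxidant response element, held by 10.8% and 10.9% of promoters, matched in none of the 3. These matches describe letters and were not tested as sites.

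Which aldehyde dehydrogenases a line expressed was compared first, with limma on log2 intensities. All 9 tested genes differed between each pair of lines at a Benjamini-Hochberg adjusted p of 0.05, against 62% of all tested genes between KATO-III and SNU-216, 58.6% between KATO-III and SNU-601 and 56.5% between SNU-216 and SNU-601. In KATO-III 4 were higher and 5 lower than in SNU-216, where 30.3% and 31.7% of all tested genes were. Compared with SNU-601, 5 were higher and 4 lower in KATO-III (28.7% and 29.9% of all tested genes), and 5 higher and 4 lower in SNU-216 (29.4% and 27.1%). Taking populations as random blocks, 8, 4 and 8 of the 9 were called in these comparisons, and 6, 4 and 6 when the 2 arrays of a population were averaged first. The median size of the log2 difference over the 9 genes was 2.26, 0.77 and 3.17 in these comparisons, and 0.44, 0.38 and 0.37 over all tested genes. ALDH1A1, ALDH2 and ALDH3A1 were far higher in KATO-III and SNU-601 than in SNU-216, and ALDH1A3 was far higher in SNU-216.

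ALDH1A3, which makes retinoic acid, gave 11369 and 11965 on the CD133+ arrays and 9649 and 9317 on the CD133- arrays of SNU-216. In KATO-III it gave 94.9 and 102 on the CD133+ arrays and 114 and 77.9 on the CD133- arrays, and in SNU-601 it lay between -8.76 and -2.78. The 3 lines did not overlap. The gene was 109-fold higher in SNU-216 than in KATO-III (adjusted p = 2.94e-11, limma) and at least 322-fold higher than in SNU-601, and the difference of KATO-III from SNU-601, at least 2.94-fold, was lost with a floor of 100 (adjusted p = 0.37).

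ALDH1A1, the cytosolic retinal dehydrogenase most often used as the stem cell marker of the family, was ordered differently. Its intensities were 2219 to 5466 in KATO-III, 959 to 1977 in SNU-601 and 27.4 to 293 in SNU-216. It was at least 35.9-fold higher in KATO-III and at least 14.5-fold higher in SNU-601 than in SNU-216, where 1 array lay under the floor. Offsetting all values by 100 instead took the log2 difference of KATO-III minus SNU-216 from 5.17 to 4.00 and that of SNU-216 minus SNU-601 from -3.86 to -2.75. KATO-III exceeded SNU-601 on every array, by 2.48-fold, a call that was lost when the 2 arrays of a population were averaged first (adjusted p = 0.433).

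ALDH2, the main mitochondrial acetaldehyde dehydrogenase, lay between -15.2 and 3.95 in SNU-216. It gave 2088 to 2556 in KATO-III and 6927 to 7425 in SNU-601. The levels were thus at least 70.3-fold and at least 219.5-fold higher in KATO-III and SNU-601 than in SNU-216, and 3.12-fold higher in SNU-601 than in KATO-III (adjusted p = 8.24e-10, limma). The floored values of SNU-216 have no spread but entered the shared estimate of it, so the errors of these differences are understated.

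ALDH3A1, a cytosolic enzyme for aromatic and medium-chain aldehydes, followed the same order of lines as ALDH2. It gave 8291 to 10539.7 in KATO-III, 14799.5 to 16180.3 in SNU-601 and 30.9 to 110.5 in SNU-216. The difference from SNU-216, where 1 array lay under the floor, was at least 149.5-fold in KATO-III and at least 252-fold in SNU-601, and an offset of 100 took the log2 differences, KATO-III minus SNU-216 and SNU-216 minus SNU-601, from 7.22 and -7.97 to 5.80 and -6.55. SNU-601 exceeded KATO-III by 1.68-fold, a call lost when populations were random blocks (adjusted p = 0.0992) or arrays were averaged (0.284). ALDH3A2, the microsomal fatty aldehyde dehydrogenase, whose gene is separated from ALDH3A1 on chromosome 17 by SLC47A2 as the only annotated coding gene between them, gave 3899 to 4366 in KATO-III, 4677 to 5380.3 in SNU-601 and 633 to 1164 in SNU-216. It was 4.77-fold and 5.91-fold higher in KATO-III and SNU-601 than in SNU-216. No array of SNU-216 reached an array of another line for either gene.

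ALDH1B1, the mitochondrial paralog of ALDH2, was highest in SNU-216 (604 to 1381), lower in KATO-III (278 to 608) and lowest in SNU-601 (63.7 to 166). SNU-216 exceeded SNU-601 by 8.97-fold, whereas the ranges of SNU-216 and KATO-III overlapped. ALDH3B1, an enzyme for lipid-derived aldehydes at membranes, reached 482 to 734 in SNU-216, 269.8 to 493 in KATO-III and 249.9 to 320.2 in SNU-601, and only SNU-216 and SNU-601 did not overlap (2.10-fold).

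ALDH7A1, which oxidises the semialdehyde of the lysine breakdown pathway, was highest in SNU-216 (6345 to 11023) and SNU-601 (5204 to 6561), which overlapped, and lowest in KATO-III (3311 to 3538). ALDH18A1, which makes the precursor of proline from glutamate, was the most even of the tested genes, at 2594 to 3692 in KATO-III, 3004 to 3926 in SNU-216 and 2639 to 2819 in SNU-601. Its largest difference between lines was 1.28-fold, between SNU-216 and SNU-601. Its calls between lines were lost with the population as a random block, where the adjusted p lay between 0.068 and 0.428.

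**Figure D2:**
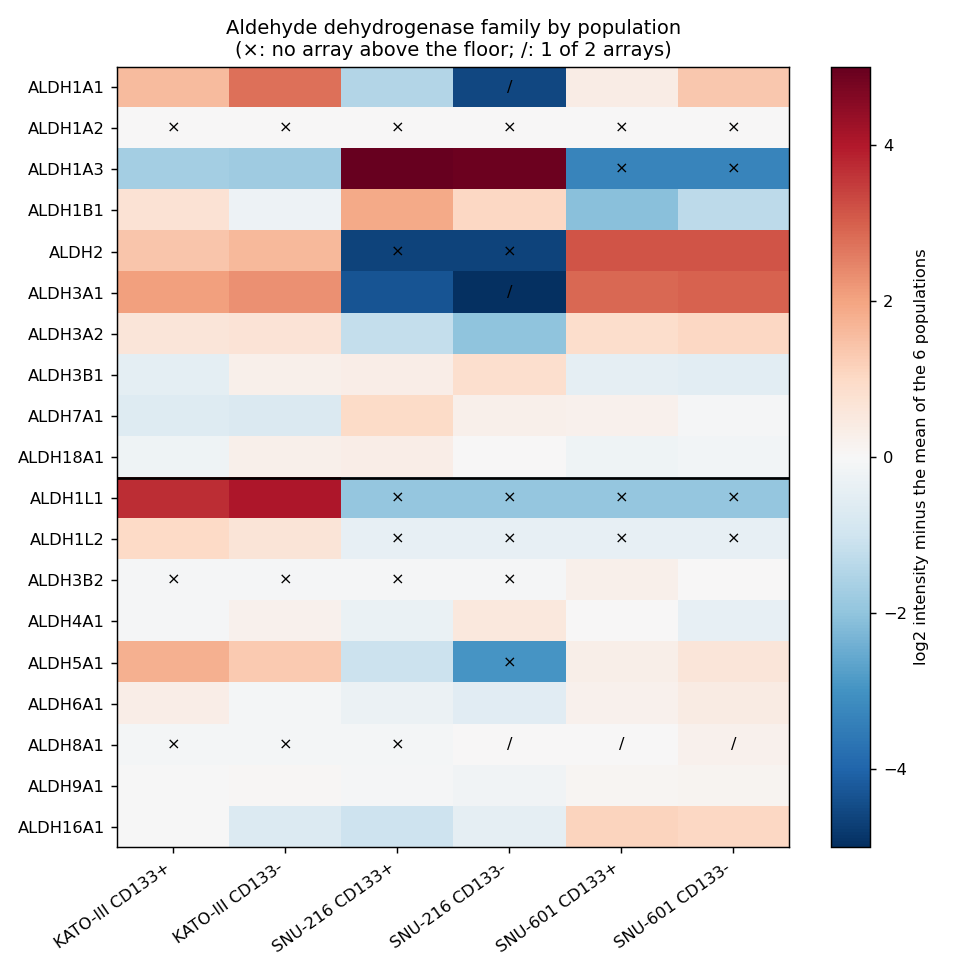
Log2 intensity of the 10 genes (above the line) and of the 9 other members of the family with a row (below it), in each population, minus the gene's own mean over the 6 populations (colour); crosses mark populations with no array above the floor and slashes those with 1 of 2. SNU-216 stands apart by ALDH1A3 above its mean and ALDH1A1, ALDH2 and ALDH3A1 under theirs, and KATO-III by ALDH1L1.

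The fractions were then compared within each line. PROM1, which encodes CD133, was higher in CD133+ cells by 1.10, 2.02 and 1.86 on the log2 scale in KATO-III, SNU-216 and SNU-601, with both CD133+ arrays above both CD133- arrays in each line. In KATO-III 5 of the 9 tested aldehyde dehydrogenases passed the test, 1 higher and 4 lower in CD133+ cells, against 39.3% of all tested genes, 18.7% higher and 20.6% lower. In SNU-216 it was 7, 6 higher and 1 lower, against 28.6% of all tested genes, 14.6% higher and 14% lower. In SNU-601 it was 2, 1 higher and 1 lower, against 16.4% of all tested genes, 8.59% higher and 7.78% lower. The median log2 change of the 9 genes was -0.23 in KATO-III, 0.71 in SNU-216 and -0.06 in SNU-601, and that of all tested genes was 0 in each line. The arrays of the fractions did not overlap for 7, 8 and 6 of the 9 genes, against 63.1%, 54.9% and 49.3% of all tested genes.

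ALDH1A1 was the 1 gene of the 9 called in every line, and its direction differed. In KATO-III it gave 2394 and 2219 on the CD133+ arrays and 5466 and 4936 on the CD133- arrays, a 2.25-fold lower level in CD133+ cells (log2 change -1.17, SE 0.0734, adjusted p = 5.79e-06, limma). In SNU-601 it gave 1036 and 959 on the CD133+ arrays and 1936 and 1977 on the CD133- arrays, 1.96-fold lower in CD133+ cells (adjusted p = 0.000181, limma). In SNU-216 the order was turned, with 269.6 and 293 on the CD133+ arrays and 27.4 and 33.5 on the CD133- arrays, only 1 of which exceeded the floor. The log2 change there was 3.09 (adjusted p = 1.54e-07, limma), at least 8.50-fold, since 1 array was raised to the floor. The floor sets its size: it was 1.49 with a floor of 100, still called. Of all tested genes, 4.97% were called in all 3 lines.

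ALDH3A1 and ALDH3A2 moved with the fraction in SNU-216. ALDH3A1 gave 110.5 and 94.4 on the CD133+ arrays of SNU-216 and 30.9 and 41.6 on its CD133- arrays, a log2 change of 1.47 (SE 0.114, adjusted p = 3.98e-05, limma), and a floor of 100 reduced it to 0.07 (adjusted p = 0.452), since these intensities lie near the floor. ALDH3A2, far above the floor, gave 1126 and 1164 against 633 and 646, a 1.79-fold higher level in CD133+ cells (adjusted p = 1.73e-05, limma). In KATO-III ALDH3A1 gave 8291 and 8674 against 9354 and 10539.7 and in SNU-601 14799.5 and 15002 against 16180.3 and 15818, with log2 changes of -0.23 and -0.10 that did not pass the test. The KATO-III change passed with a floor of 100 (adjusted p = 0.0175) or an offset of 100 (0.0173). ALDH3A2 changed by -0.06 and -0.14 in these lines, also short of the threshold.

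ALDH3B1 was lower in CD133+ cells of KATO-III, at 306 and 269.8 against 469 and 493 (log2 change -0.74, SE 0.123, adjusted p = 0.00133, limma). It was lower in those of SNU-216 as well, at 482 and 529 against 734 and 725 (log2 change -0.53, adjusted p = 0.0113, limma). The second call was lost without any 1 of 3 SNU-216 arrays, both CD133- arrays and CD133+ replicate 1 (adjusted p between 0.0511 and 0.0744). In SNU-601, with 311 and 278.5 against 320.2 and 249.9, the fractions overlapped.

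ALDH7A1 was higher in CD133+ cells of SNU-216, at 11023 and 10311 against 6673 and 6345 (1.64-fold, adjusted p = 1.43e-05, limma). It was also higher in those of SNU-601, at 6324.5 and 6561 against 5236 and 5204 (1.23-fold, adjusted p = 0.00286, limma). In KATO-III it gave 3538 and 3438 against 3317 and 3311, a log2 change of 0.07 that missed the threshold (adjusted p = 0.257, limma). Both CD133+ arrays thus lay above both CD133- arrays in every line. The fractions did not overlap, in either direction, for 63.1%, 54.9% and 49.3% of all tested genes in KATO-III, SNU-216 and SNU-601. How many genes did so in the same direction in all lines was not counted.

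ALDH18A1 was lower in CD133+ cells of KATO-III, at 2593.5 and 2683 against 3692 and 3555 (log2 change -0.46, SE 0.0452, adjusted p = 6.98e-05, limma). It was higher in those of SNU-216, at 3926 and 3829 against 3004 and 3197 (log2 change 0.32, adjusted p = 0.000837, limma). In SNU-601 it gave 2639 and 2658 against 2722 and 2819, a change of -0.06 that did not pass. With ALDH1A1 it was 1 of 2 genes called in opposite directions in different lines, as were 10.9% of all tested genes.

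ALDH1B1 had the widest spread between arrays. It gave 608 and 550.2 on the CD133+ arrays against 299.5 and 278 on the CD133- arrays of KATO-III (log2 change 1.00, SE 0.244, adjusted p = 0.0103, limma) and 1381 and 1218 against 841 and 604 in SNU-216 (log2 change 0.86, adjusted p = 0.0274, limma). In SNU-601 it gave 103 and 63.7 against 166 and 121, a change of -0.81 at an adjusted p of 0.0554 (limma). All 3 rest on few arrays. The KATO-III call was lost without CD133+ replicate 1 (adjusted p = 0.063) or CD133- replicate 2 (0.0586), the SNU-216 call without CD133+ replicate 1 (0.134), CD133+ replicate 2 (0.0702) or CD133- replicate 2 (0.176), and the SNU-601 change was called without CD133+ replicate 1 (0.0226).

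ALDH2 changed little with the fraction. In KATO-III it gave 2088 and 2157.5 on the CD133+ arrays against 2424 and 2556 on the CD133- arrays, 1.17-fold lower in CD133+ cells (adjusted p = 0.00806, limma), a call lost without CD133+ replicate 1 (0.0525) or CD133- replicate 2 (0.059). In SNU-601 the fractions overlapped, with 7425 and 7065 against 7298 and 6927. The errors of the ALDH2 changes also drew on the floored SNU-216 arrays, whose lack of spread lowers them. ALDH1A3, given above, did not pass the test in any line. Its log2 change in SNU-216 was 0.30 (adjusted p = 0.187, limma), though both CD133+ arrays exceeded both CD133- arrays. The fractions of SNU-216 did not overlap, in either direction, for 54.9% of all tested genes. Its spread there was estimated together with the dim KATO-III arrays, and without KATO-III CD133- replicate 1 or 2 the change in SNU-216 was called (adjusted p = 0.0169 and 0.0161); without replicate 1 its KATO-III change, 0.34, was called too (adjusted p = 0.0208).

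**Figure D3:**
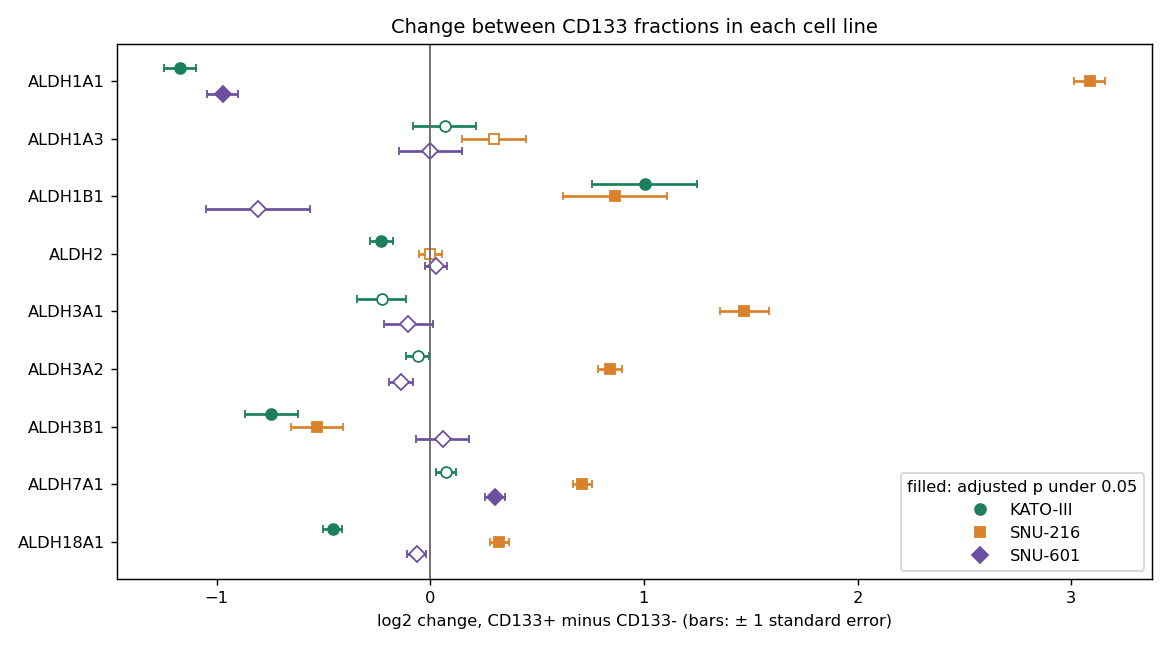
Log2 change between fractions, CD133+ minus CD133- (horizontal axis), for each of the 9 tested genes in each line, with bars of 1 standard error from limma and filled symbols at an adjusted p under 0.05. ALDH1A1 ranges from -1.17 in KATO-III to 3.09 in SNU-216, and 6 genes lie to the right of 0 with filled symbols in SNU-216.

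Whether the change between fractions differed between lines was tested as an interaction. It did for 8 of the 9 genes, all but ALDH1A3 (adjusted p = 0.486, limma's F-test), against 44.4% of all tested genes. With a floor of 100 ALDH1A3 was called (0.0199) and ALDH3A1 was not (0.0505), and without KATO-III CD133- replicate 2 ALDH1A3 was called as well (0.0192). The call of ALDH2 was lost in 6 of 12 fits without 1 array, which were those without KATO-III CD133+ replicate 1 or 2, KATO-III CD133- replicate 2, SNU-216 CD133+ replicate 2, SNU-601 CD133+ replicate 1 or SNU-601 CD133- replicate 2. Over all lines, with line as a block, 1 of the 9 genes passed, ALDH7A1, against 4.73% of all tested genes, 2.62% higher and 2.11% lower. Its log2 change was 0.36 (SE 0.0877, adjusted p = 0.0409, limma), but without any 1 of the 12 arrays it was no longer called (adjusted p between 0.0545 and 0.0801), nor with the 2 arrays of a population averaged first (0.796). ALDH3B1 came next, at -0.41 (adjusted p = 0.0978, limma), and was called without SNU-601 CD133- replicate 2 (0.0388). ALDH1A1 had a change of 0.31 with an SE of 0.59, since the lines oppose each other.

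The signal-to-noise ratio, in which the mean of 6 CD133- arrays is taken from that of 6 CD133+ arrays and the result set against the added SDs of both, ranked genes over all lines on linear intensities. None of the 10 genes reached 1 or -1, and 0.96% of all genes did. The values furthest from 0 among the genes tested with limma were -0.43 for ALDH3B1, 0.40 for ALDH7A1 and -0.37 for ALDH1A1. On log2 intensities with the floor they were -0.39, 0.31 and 0.065, so the sign of ALDH1A1 turned. ALDH1A2 had 0.53, a ratio of values all under the floor. The SDs include the differences between lines, which hold these ratios down. With values centred within each line, ALDH3B1 alone of the 10 passed, at -1.11, as did 2546 of all genes.

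The 9 other members of the family with a row were also tested. In KATO-III 5 passed, 3 higher and 2 lower in CD133+ cells, in SNU-216 4, 2 higher and 2 lower, and in SNU-601 1, against 39.3%, 28.6% and 16.4% of all tested genes. Over all lines it was 0 by limma, where 1 had an unadjusted p under 0.05. ALDH4A1, which completes the breakdown of proline to glutamate, was lower in CD133+ cells of KATO-III and SNU-216, with log2 changes of -0.27 and -0.83, and higher in those of SNU-601, at 0.42. ALDH5A1, the succinic semialdehyde dehydrogenase of GABA breakdown, gave 123 and 115 on the CD133+ arrays of SNU-216 and lay under the floor on its CD133- arrays. ALDH1L1, a cytosolic enzyme of folate metabolism, gave 1597.5 to 2123 in KATO-III and lay under the floor on all arrays of both other lines. ALDH9A1, which acts on aminoaldehydes, lay between 11684 and 14836 on all 12 arrays.

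Genes around these enzymes were taken from lists by pathway. Of 29 genes of the retinoid pathway, 23 were tested: 11 passed in KATO-III (4 higher, 7 lower), 8 in SNU-216 (5 higher, 3 lower), 10 in SNU-601 (6 higher, 4 lower) and 2 over all lines. These are 47.8%, 34.8%, 43.5% and 8.7% of the tested genes of the list, against 39.3%, 28.6%, 16.4% and 4.73% of all tested genes, and no test set the list against other genes. RDH10, which makes retinal, the substrate of the ALDH1A enzymes, gave 7073 and 6367 on the CD133+ arrays of SNU-216 against 2557 and 2756 on its CD133- arrays. Its change of 1.34 on the log2 scale was the largest there among genes of the list above the floor on all arrays, and it was lower in CD133+ cells of SNU-601, at -0.35. DHRS3, which turns retinal back to retinol, gave 529.7 and 554 against 1528 and 1488 in KATO-III, a change of -1.48. The 2 genes called over all lines were TGM2, a transglutaminase induced by retinoic acid (0.52, adjusted p = 0.0445, limma), and DHRS9, another retinol dehydrogenase (-1.59, adjusted p = 0.0371, limma). DHRS9 was named after its values were seen; it lay under the floor on all SNU-216 arrays and both CD133+ arrays of KATO-III.

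Of 19 other enzymes of alcohols and aldehydes, 14 were tested: 7 passed in KATO-III (2 higher, 5 lower), 7 in SNU-216 (2 higher, 5 lower), 3 in SNU-601 (1 higher, 2 lower) and 0 over all lines by limma, where 5 had an unadjusted p under 0.05. In the 3 lines these are 50%, 50% and 21.4% of the tested genes, against 39.3%, 28.6% and 16.4% of all. CBR3, a carbonyl reductase, was higher in CD133+ cells of KATO-III (0.66) and SNU-601 (0.79) and lower in those of SNU-216 (-0.65). AKR1C3, an aldo-keto reductase named after its values were seen, gave 3874 and 4407.5 against 12609 and 12826 in KATO-III, 250.1 and 207.5 against 21.6 and 21.9 in SNU-216 and 10115 and 10442 against 11560 and 11229 in SNU-601. Its log2 change was -1.62 in KATO-III and at least 2.80 in SNU-216, and both passed the test. Its close paralogs may share its probe, which was not tested.

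Of 9 tested enzymes of proline and glutamate around ALDH18A1 and ALDH4A1, 6 passed in KATO-III (5 higher, 1 lower), 1 in SNU-216, and 0 in SNU-601 and over all lines by limma, where 3 and 0 had an unadjusted p under 0.05. Of all tested genes 39.3% passed in KATO-III, 28.6% in SNU-216, 16.4% in SNU-601 and 4.73% over all lines, which also stand beside the counts of the next 2 lists. OAT, ornithine aminotransferase, was higher in CD133+ cells of KATO-III by 0.44, where ALDH18A1 was lower. Of 7 tested genes of lysine and choline breakdown, the field of ALDH7A1, 3 passed in KATO-III, all higher, and 4 in SNU-216, 2 higher and 2 lower. None passed in SNU-601 or over all lines by limma, where 0 and 2 had an unadjusted p under 0.05. CHDH, choline dehydrogenase, was higher in CD133+ cells of KATO-III, at 1.11, and lower in those of SNU-216, at -0.47. Of 6 tested genes around fatty aldehydes, 3 passed in KATO-III, 1 in SNU-216 and 1 in SNU-601, and 0 over all lines by limma, also at an unadjusted p. SGPL1, sphingosine phosphate lyase, was lower in CD133+ cells of KATO-III, at -0.58.

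**Figure D4:**
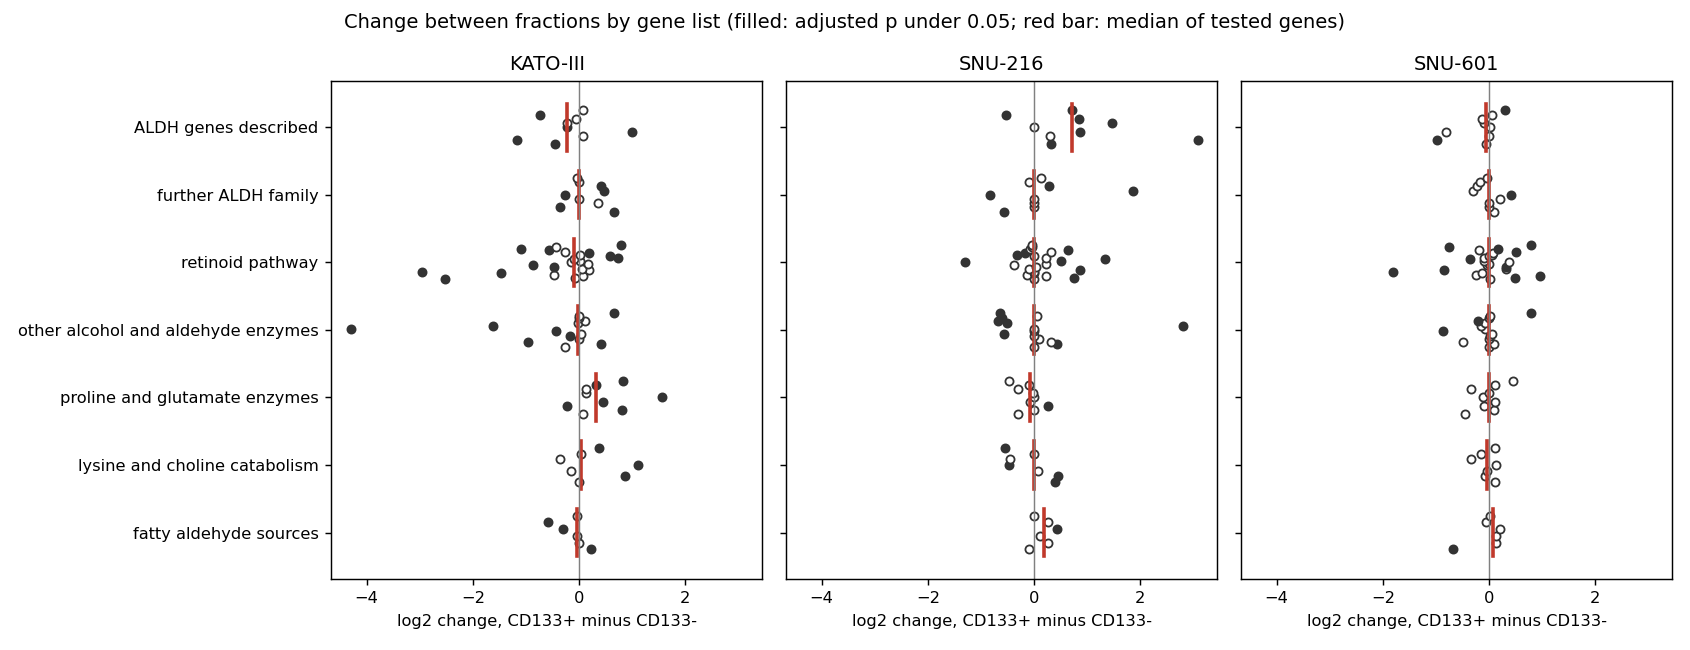
Log2 change between fractions, CD133+ minus CD133- (horizontal axis), of each tested gene of the 10 aldehyde dehydrogenases and of the 6 further lists (rows), in each line (panels); points are genes, filled at an adjusted p under 0.05, and red bars are list medians. In SNU-216 the median of the aldehyde dehydrogenases, 0.71, lies to the right of 0. The median of the retinoid genes there is 0, the change that tested genes under the floor on all SNU-216 arrays, such as DHRS9, are given.

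Both fractions had the markers of an epithelial line: EPCAM, KRT8, KRT18, KRT19 and CDH1 lay above the floor on all 12 arrays. CDH1, E-cadherin, was lower in CD133+ cells of KATO-III (-0.70) and SNU-601 (-0.25) and higher in those of SNU-216 (0.30). KRT18 went the other way in SNU-216, at -0.39, and the other epithelial markers passed the test in no line. Of the 6 stromal markers COL3A1, DCN and PDGFRB lay under the floor on all arrays, and VIM and COL1A1 were tested. Their list summed to 385 to 413 in CD133+ and 276 to 302 in CD133- cells of KATO-III, where VIM (0.43) and COL1A1 (at least 0.84) were higher in CD133+ cells. It summed to 576 to 601 and 599 to 628 in SNU-216 and 431 to 456 and 395 to 439 in SNU-601, where neither passed the test. Markers of endothelial cells lay under it on all arrays (0 of 3), as did PTPRC and CD3E among the 5 immune markers. The summed intensity of the immune markers, with values under 0 taken as 0, moved with the fraction in each line. It was 884 to 921 in CD133+ and 1299 to 1343 in CD133- cells of KATO-III, 206 to 218 and 424 to 469 in SNU-216, and 1148 to 1279 and 1612 to 1679 in SNU-601, most of it CD68 and, in KATO-III, CD14. CD68, a lysosomal protein that macrophages carry in quantity, was lower in CD133+ cells over all lines (-0.98, adjusted p = 0.00868, limma). The part of such differences in the values of the aldehyde dehydrogenases was not tested.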

How the data were processed

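Total RNA of sorted cells was amplified, labelled with biotin and hybridised to the arrays by the authors, who used BeadStudio per the labels and quantile normalization. The deposited values are intensities on a linear scale, 1 row per gene symbol, and 32.1% of them lie at or below 0. The background method and the rule for several probes per gene are not given in the sources used here. Of 34688 rows, 93 were empty.

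Intensities were floored at 32.7 and taken to log2, the floor being the 1st percentile of the table without its sign. The 20147 genes (58.2%) that exceeded it on 2 arrays or more entered limma 3.58.1 (R 4.3.3), fitted with a mean-variance trend. Populations had a mean each (6 residual degrees of freedom); the comparison over all lines had line as a block (8). Benjamini-Hochberg adjusted p-values were taken over all tested genes, at 0.05. Per array, 16320 to 16474 genes exceeded the floor, and precision is limited by how many arrays there are. Arrays of a population correlated at 0.993 to 0.995 across genes and shared at most 19 identical values. Signal-to-noise ratios and the counts of called genes, per list and over all tested genes, came from R. Motifs and summaries of these results came from Python 3.11.15 (numpy 2.4.6, pandas 2.3.3), and figures were drawn with matplotlib 3.10.9. The fits were also run on simulated arrays with independent noise, for genes above the floor on every array. Such a run does not cover floored genes or arrays that share RNA.

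The genes and lists were chosen with earlier results of these data known. The text names all 10 genes and PROM1, any other family member, and for each further list and comparison at most 3 genes, the largest changes among those called and above the floor on all 12 arrays. Named outside this rule, after their values were seen, were DHRS9, AKR1C3 and markers of other cell types. Promoters came from RefSeq (GRCh38.p14), where ALDH2 and ALDH3A1 had no entry. Alternatives changed the floor, the offset, the centring, the filter, the trend, the block and the treatment of replicates, and left out each array.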

Additional observations from a re-analysis of the deposited data

Results flagged for a closer look

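The change between CD133+ and CD133- cells differed between the 3 lines for 8 of the 9 tested genes, by limma's F-test of the interaction. The adjusted p was 1.39e-07 for ALDH1A1, whose log2 change was -1.17 in KATO-III, 3.09 in SNU-216 and -0.97 in SNU-601, and 7.92e-05 for ALDH18A1, at -0.46, 0.32 and -0.06. It was 4.47e-05 for ALDH3A2, 9.76e-05 for ALDH3A1 and 0.000225 for ALDH7A1, each with its highest change in SNU-216. It was 0.00409 for ALDH1B1, higher in CD133+ cells of KATO-III and SNU-216 and at -0.81 in SNU-601, 0.0119 for ALDH3B1 and 0.0368 for ALDH2. The ALDH2 call was lost in 4 of 8 other settings (floor of 16, centring on medians, no trend and replicate block, adjusted p between 0.0524 and 0.0734) and in 6 of 12 fits without 1 array (up to 0.138). Of all tested genes, 44.4% differed in this way.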

How the results depend on the processing

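Leaving out each array in turn gave 864 values for the 9 tested genes, of which 820 kept their direction and side of the threshold, 28 lost and 6 gained a call and 10 changed sign; the other alternatives gave 688, with 646, 31, 7 and 4. A population left with 1 array was assumed to vary like the others. Without 1 array the number of genes called ranged from 0 to 1 over all lines, 3 to 6 in KATO-III, 5 to 8 in SNU-216, 2 to 3 in SNU-601 and 7 to 8 for the interaction; it was 9 in each comparison of lines, and 0 passed the signal-to-noise ratio. Over all lines the count was 0 without the filter on dim genes (ALDH7A1 adjusted p = 0.112), without the trend (0.0667), with a replicate block (0.0642), after averaging arrays (0.796) and with a random block per population (0.222). With only the 5 genes above the floor on all 12 arrays tested, 3 were called in KATO-III and 5 in the interaction and in each comparison of lines. KATO-III against SNU-601 gave 4 calls with arrays averaged first or a random block. Values centred within each line put 1 gene past the ratio's threshold, ALDH3B1 at -1.11, and 2546 of all genes. These alternatives changed signs; the cause was not tested. Over all lines ALDH1A1 was -0.22 with a floor of 100 and -0.17 with an offset of 100, and from -0.048 to 0.52 without 1 array, under 0 without any SNU-216 array, and ALDH3A1 was -0.086 with a floor of 100. In KATO-III ALDH1A3 was -0.076 with a floor of 100, and without 1 array it ranged from -0.21 to 0.34 and ALDH3A2 from -0.13 to 0.0061, the turned signs being without CD133- replicate 2. In SNU-601 ALDH2 ranged from -0.011 to 0.064 and ALDH3B1 from -0.12 to 0.24, turned without CD133+ replicate 1 or CD133- replicate 2. Between the fractions of a line the differences of replicates correlated at 0.0261, 0.0129 and -0.0065 in KATO-III, SNU-216 and SNU-601. No shift shared by replicate number was seen, which cannot tell whether arrays with the same number came from the same sort. The replicate block lost ALDH7A1 over all lines and the ALDH2 interaction (0.0538) and gained ALDH1B1 in SNU-601 (0.0098). Values near the floor limit ALDH1A1 and ALDH3A1 in SNU-216.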
